A study of Mus musculus with 6 samples.

Results

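The genes described here are 39 genes of Kupffer cells, other myeloid cells, dendritic cells and leukocytes in general, chosen by name as markers of these cells, out of 24421 gene symbols in the count table. They were read in RNA from liver endothelial cells (ECs) that were sorted as CD31+CD45-, a gate on the endothelial surface molecule CD31 that should discard leukocytes, which carry CD45. The samples came from C57BL/6J wild-type (WT) female mice, 3 of them young (10 weeks) and 3 aged (127, 131 and 136 weeks, 1 sample each), with no treatment named. Each library was made from total RNA of 50000 sorted cells, and how many mice went into a sample is not given in the sources used here. The list was divided into 5 resident Kupffer cell genes, 5 monocyte genes, 6 dendritic cell genes, 14 general macrophage and myeloid genes, 4 activating Fc receptor genes and 5 general leukocyte genes.

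Kupffer cells are the resident macrophages of the liver. They sit inside the sinusoids against the endothelium, clear particles, bacteria and old blood cells, and maintain themselves largely without input from the blood in the healthy liver. Monocytes enter from the blood and can become macrophages that lack part of the resident programme, whereas dendritic cells present antigen to T cells. Since the gate should discard all of these cells, the question put to the data was how much of their RNA each library held and whether the resident and the incoming kinds of gene had the same pattern over the samples. In bulk RNA, fewer cells of a type and less RNA per cell cannot be told apart.

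Of the 5 resident Kupffer cell genes, 4 had alike patterns across the 6 samples in the values given below and Marco did not, so the promoters of all 5 are shown here. Each runs from 250 bases before to 50 bases after the RefSeq start on GRCm38.p6, 5′ to 3′ on the strand of the gene. Capitals mark each match on either strand to TGCTGA, the core half-site of the MAF family of transcription factors, which work in macrophages.
Clec4f (chr6:83656067-83656366, minus strand): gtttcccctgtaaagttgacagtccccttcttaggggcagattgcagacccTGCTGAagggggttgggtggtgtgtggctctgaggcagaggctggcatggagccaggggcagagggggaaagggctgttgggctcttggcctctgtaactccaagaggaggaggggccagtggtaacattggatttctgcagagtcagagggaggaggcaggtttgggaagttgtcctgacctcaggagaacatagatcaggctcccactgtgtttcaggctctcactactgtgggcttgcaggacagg
Vsig4 (chrX:96293389-96293688, minus strand): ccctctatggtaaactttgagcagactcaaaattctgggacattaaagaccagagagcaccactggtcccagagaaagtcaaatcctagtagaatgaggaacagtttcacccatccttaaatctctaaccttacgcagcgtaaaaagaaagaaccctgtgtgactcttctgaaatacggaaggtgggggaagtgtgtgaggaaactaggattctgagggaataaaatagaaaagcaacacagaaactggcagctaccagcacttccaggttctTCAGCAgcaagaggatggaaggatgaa
Timd4 (chr11:46810549-46810848, plus strand): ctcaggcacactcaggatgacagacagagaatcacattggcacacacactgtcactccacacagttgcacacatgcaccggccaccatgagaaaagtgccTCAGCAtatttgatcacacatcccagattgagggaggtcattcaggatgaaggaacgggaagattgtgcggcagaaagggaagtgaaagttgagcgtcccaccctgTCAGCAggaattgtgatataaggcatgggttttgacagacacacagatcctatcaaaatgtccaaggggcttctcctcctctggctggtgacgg
Cd5l (chr3:87357631-87357930, plus strand): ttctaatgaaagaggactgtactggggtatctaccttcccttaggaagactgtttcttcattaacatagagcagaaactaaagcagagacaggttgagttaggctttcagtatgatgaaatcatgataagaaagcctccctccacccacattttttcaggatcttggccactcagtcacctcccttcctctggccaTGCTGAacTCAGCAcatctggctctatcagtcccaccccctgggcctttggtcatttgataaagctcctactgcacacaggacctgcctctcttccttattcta
Marco (chr1:120504975-120505274, minus strand): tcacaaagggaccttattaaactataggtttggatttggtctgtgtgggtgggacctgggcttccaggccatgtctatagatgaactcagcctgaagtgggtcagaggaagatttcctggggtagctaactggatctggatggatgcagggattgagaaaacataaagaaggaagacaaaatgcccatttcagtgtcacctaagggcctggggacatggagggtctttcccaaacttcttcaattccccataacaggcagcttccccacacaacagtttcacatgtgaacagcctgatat
These letters stood in 4 of 5 Kupffer, in 0 of 5 monocyte and in 1 of 6 dendritic cell gene promoters. In the other groups it was 2 of 12 general macrophage, 2 of 4 Fc receptor and 2 of 6 general leukocyte gene promoters. That is 11 of 38 promoters of the list, from 10 of 34 genes. The 2 Fc receptor promoters with a match are overlapping promoters of Fcgr3, so the match was in 1 of 3 genes. The letters also stood in 19.5% of all 32851 promoters of this length, so a match is a description of the sequence and not a binding site. The letters GAGGAA, the core of sites for the myeloid factor PU.1, were searched in the same way and stood in 3 of 5 Kupffer gene promoters, in 47.4% of the 38 promoters of the list and in 28.3% of all promoters.

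The level of a gene is given in CPM (counts divided by a TMM-adjusted library size), always in the order young replicates 1, 2 and 3 and then the 127-, 131- and 136-week samples. Total counts ran from 23001556 to 31651817 per library. A count of 0 allows up to 3 counts, which is 0.0947 to 0.135 CPM depending on the library and covers counting error only. Lars2 and Rn45s, which collect ribosomal RNA reads, took 1.29% of the counts of young replicate 3, 0.960% of those at 127 weeks and 4.68% to 5.53% elsewhere. Differences are therefore also given within the libraries poor and rich in these counts. The poor kind is only young replicate 3 against the 127-week sample, so its differences have no spread. The 13 endothelial genes of a reference list summed to between 14870 and 29080 CPM per library. The endothelial sum was lower in aged libraries (16140, 21380 and 14870 CPM) than in young ones (26720, 27890 and 29080 CPM). All aged samples lay below all young samples for 8 of the 13 genes, against 8.33% of all 14612 genes tested.

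Over the whole list, the 3 aged samples differed widely from each other. The 136-week sample held the highest level of 31 of the 39 genes, against 25.7% of all 14612 genes tested, and lay above all young samples for 32 of 39 (34.1% of all genes). The 127-week sample lay above all young samples for 26 of 39 (30.5% of all genes). The 131-week sample lay below all young samples for 18 of 39 (25.1% of all genes) and was the lowest of the 6 for 16 of 39 (12.7% of all genes). Each of the 3 advanced ages was 1 sample, so age in weeks and the individual sample cannot be told apart.

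**Figure D1:**
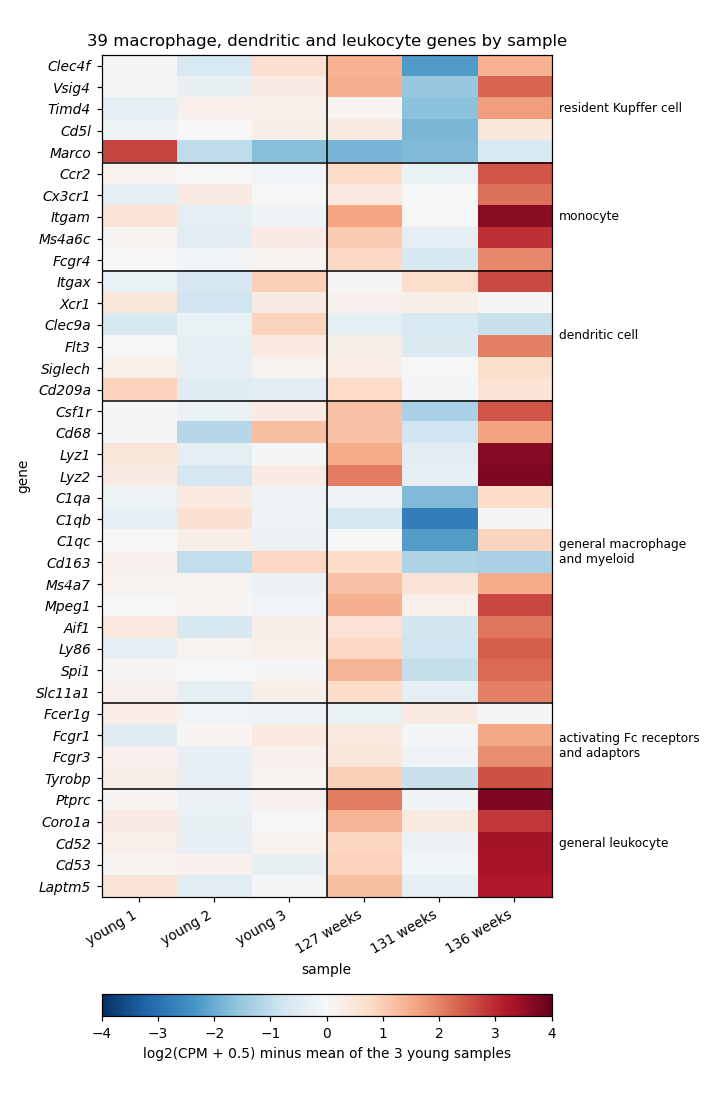
Heat map of the 39 genes (rows, in 6 groups) in the 6 samples (columns), where the colour gives log2(CPM + 0.5) minus the mean of the 3 young samples. The 136-week column is red in most rows. The 131-week column is blue for genes that include Clec4f, Vsig4, Timd4, Cd5l, Csf1r and the C1q genes. It is near white for the general leukocyte genes.

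With edgeR's quasi-likelihood test, 0 of the 39 genes and 0 of all 14612 genes passed an adjusted p of 0.05 with a log2 fold change beyond 1 (0% of all genes), the smallest adjusted p being 0.301 among the 39 and 0.0735 among all genes. With the unadjusted p held below 0.05 and the log2 fold change above 1, 10 of the 39 were higher in aged samples, against 5.43% of all genes, and 0 were lower, against 1.19% of all genes. These 10 were Itgam, Lyz1, Lyz2, Ms4a7, Mpeg1, Ptprc, Coro1a, Cd52, Cd53 and Laptm5, and none of the Kupffer, dendritic cell or Fc receptor genes was among them. All aged samples lay above all young samples for 3 of 39 genes, Ms4a7, Mpeg1 and Coro1a, against 9.62% of all genes, and below them for 0 of 39, against 8.33% of all genes. The median log2 fold change was 1.52 over the 39 genes and 0.0098 over all genes. With DESeq2, 5 of the 39 passed the adjusted threshold as higher in aged samples (Itgam, Lyz1, Mpeg1, Ptprc and Coro1a, adjusted p 0.0128 to 0.0486), against 2.7% of all genes. These counts rested on single samples. Without the 136-week sample 0 genes of the list were higher at the unadjusted threshold and the median was 0.41, whereas without the 131-week sample 23 were (7.71% of all genes) and the median was 2.05. Without young replicate 2 or 3 the count was 4 or 6. Among these removals, the share of all genes was counted only for the 131-week sample.

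Apart from Marco, the resident Kupffer cell genes were at their lowest in the 131-week sample and at their highest in the 127- or the 136-week sample. Clec4f, a lectin receptor made in the liver by Kupffer cells, had 11.8, 7.85 and 19.9 CPM in young and 33.0, 2.18 and 32.8 CPM in aged samples. It lies on chromosome 6 of mm9 from 83594536 to 83606181. The 127- and 136-week samples were 2.499 and 2.486 times the young mean and the 131-week sample was 6.06 times below it, so the groups overlapped (log2 fold change 0.78, standard error 0.84, adjusted p = 0.766). Vsig4, a complement receptor through which Kupffer cells take up bacteria (chromosome X, 93442542 to 93488777), had 4.28, 3.57 and 5.77 CPM in young and 13.1, 1.25 and 24.7 CPM in aged samples. It was the Kupffer gene with the highest fitted age difference, but again the 131-week sample lay below every young sample, and the log2 fold change of 1.52 (standard error 0.85) had an adjusted p of 0.521.

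Timd4, a receptor for phosphatidylserine on dying cells that marks long-lived resident macrophages (chromosome 11, 46624302 to 46657834), had 0.67, 1.26 and 1.29 CPM in young and 1.17, 0 and 4.39 CPM in aged samples. It was not detected in the 131-week sample, where 0 counts allow up to 0.117 CPM, and its level in the 127-week sample lay within the young range (log2 fold change 0.78, standard error 1.27, adjusted p = 0.866). Cd5l, a secreted scavenger protein of tissue macrophages (chromosome 3, 87161803 to 87174996), was the steadiest of the 5, with 7.44, 8.49 and 10.3 CPM in young and 11.3, 2.06 and 11.9 CPM in aged samples. Its 131-week level was 4.23 times below the young mean, the other 5 samples lay within 7.44 to 11.9 CPM, and the fitted log2 fold change was -0.055 (standard error 0.57, adjusted p = 0.984).

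Marco, a scavenger receptor for bacteria and particles (chromosome 1, 122371115 to 122401661), had a pattern of its own, with 11.4, 0.406 and 0.0631 CPM in young and 0, 0.0389 and 0.69 CPM in aged samples. Nearly all of its signal was thus the 306 counts in young replicate 1. No other Kupffer gene was highest in that sample. The fitted log2 fold change was -4.03 (standard error 1.98, adjusted p = 0.458), and it was 0.073 when young replicate 1 was left out. The promoter of Marco was also the one of the 5 without the TGCTGA letters, and nothing about MAF factors follows from that.

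**Figure D2:**
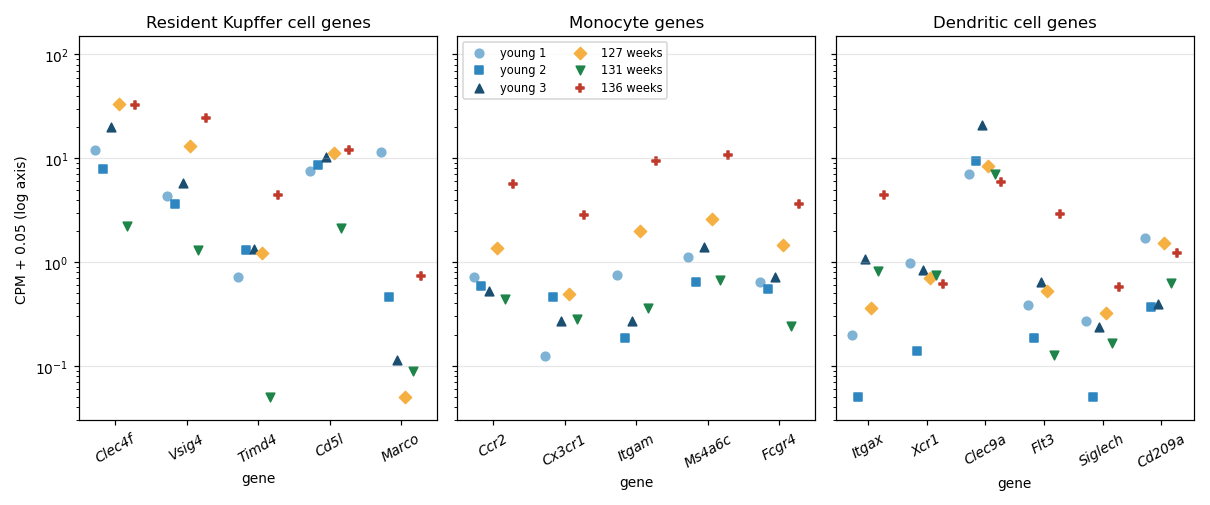
Level of each Kupffer, monocyte and dendritic cell gene in each of the 6 samples (CPM + 0.05 on a log axis, 1 point per sample). The 131-week sample (green triangle) is far below the young samples for Clec4f, Vsig4, Timd4 and Cd5l but close to them for most monocyte genes, and the 136-week sample (red cross) is the highest for all 5 monocyte genes.

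Monocyte genes had levels near 1 CPM or below in young samples and at 131 weeks, higher levels at 127 weeks and 6.18 to 26.7 times the young mean in the 136-week sample. Itgam, the integrin subunit CD11b of monocytes, neutrophils and many macrophages, had 0.707, 0.135 and 0.221 CPM in young and 1.93, 0.311 and 9.46 CPM in aged samples. Its log2 fold change was the highest of the 39 (3.43, standard error 1.23, adjusted p = 0.339, unadjusted p = 0.0252). Ccr2, the receptor that draws monocytes out of the bone marrow and into tissue, had 0.67, 0.542 and 0.473 CPM in young and 1.31, 0.389 and 5.61 CPM in aged samples. The groups overlapped through the 131-week sample (log2 fold change 2.11, standard error 0.92, adjusted p = 0.405).

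Cx3cr1, a chemokine receptor of patrolling monocytes, had 0.0744, 0.406 and 0.221 CPM in young and 0.447, 0.233 and 2.80 CPM in aged samples (log2 fold change 2.30, standard error 1.11, adjusted p = 0.452). Ms4a6c, a membrane protein gene active in monocytes, had 1.08, 0.587 and 1.36 CPM in young and 2.55, 0.622 and 10.8 CPM in aged samples (log2 fold change 2.19, standard error 0.95, adjusted p = 0.400). Fcgr4, an activating IgG receptor of non-classical monocytes and macrophages, had 0.596, 0.497 and 0.663 CPM in young and 1.41, 0.195 and 3.62 CPM in aged samples (log2 fold change 1.56, standard error 0.91, adjusted p = 0.544). For all 5 the 127-week sample lay above every young sample and the 136-week sample above that, while the 131-week sample was below every young sample for Ccr2 and Fcgr4. The 5 genes together had 84, 48 and 93 counts in young and 222, 45 and 794 counts in aged libraries. Their median log2 fold change was 2.19, and 1 of 5, Itgam, passed the unadjusted threshold, against 5.43% of all genes.

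Dendritic cell genes did not share 1 pattern. Itgax, the integrin subunit CD11c of dendritic cells and some macrophages, had 0.149, 0 and 1.01 CPM in young and 0.310, 0.778 and 4.39 CPM in aged samples (log2 fold change 2.18, standard error 1.40, adjusted p = 0.581). Flt3, the receptor that supports dendritic cell development, had 0.335, 0.135 and 0.599 CPM in young and 0.482, 0.0778 and 2.84 CPM in aged samples (log2 fold change 1.63, standard error 1.19, adjusted p = 0.633). Both were highest in the 136-week sample and the groups overlapped.

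Xcr1, the chemokine receptor that marks cross-presenting dendritic cells, had 0.931, 0.0903 and 0.789 CPM in young and 0.653, 0.700 and 0.569 CPM in aged samples, with no higher value at 136 weeks (log2 fold change 0.075, standard error 0.82, adjusted p = 0.984). Siglech, a lectin of plasmacytoid dendritic cells, stayed under 1 CPM throughout, with 0.223, 0 and 0.189 CPM in young and 0.275, 0.117 and 0.528 CPM in aged samples (log2 fold change 1.09, standard error 1.13, adjusted p = 0.755). Cd209a, a lectin of dendritic cells derived from monocytes, had 1.64, 0.316 and 0.347 CPM in young and 1.48, 0.584 and 1.18 CPM in aged samples (log2 fold change 0.49, standard error 0.79, adjusted p = 0.864). Of these 3 genes, the 136-week sample was the highest for Siglech, with young replicate 1 the highest for the other two.

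Clec9a, the receptor by which cross-presenting dendritic cells sense dead cells, was the most abundant of the 6 dendritic cell genes per length, at 4.10 ± 2.48 FPKM in young and 2.34 ± 0.336 FPKM in aged samples (SD, n = 3 each). It had 7.07, 9.30 and 21.0 CPM in young and 8.39, 7.08 and 5.81 CPM in aged samples (log2 fold change -0.81, standard error 0.42, adjusted p = 0.481). Its exons on chromosome 6 (129358880 to 129374780) share 184 of 3333 bases with exons of Clec1b, a lectin gene beside it. Clec1b had 104, 111 and 208 CPM in young and 57.1, 122 and 37.7 CPM in aged samples, so it too was highest in young replicate 3 and lowest in the 136-week sample. The part of Clec1b reads in the Clec9a counts was not tested.

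Placed against each other within a library, the summed Kupffer genes and the summed monocyte and dendritic cell genes had log2 ratios of 1.40, 0.85 and 0.47 in young and 1.61, -1.01 and 0.65 in aged samples. The means were 0.91 ± 0.47 in young and 0.42 ± 1.32 in aged samples (SD, n = 3 each), and the groups overlapped. The difference of the means turned sign between the libraries rich (-1.30) and poor (1.13) in Lars2 and Rn45s, and was 0.22 without the 131-week sample. In all samples but the 136-week one, Clec9a gave more CPM to the lower side of this ratio than any other gene. Such ratios of CPM also depend on transcript length, so only their differences between samples are read here. Without Clec9a, a choice made after seeing the data, the log2 ratios were 2.48, 2.99 and 2.67 in young and 2.43, 0.46 and 0.83 in aged samples. With the most abundant gene of each side left out, Clec4f and Clec9a, they were 1.89, 2.34 and 1.57 in young and 1.24, -0.26 and -0.0042 in aged samples. Marco stayed in both of these ratios, with 306 counts in young replicate 1. Without Marco, young replicate 1 would lie below the 127-week sample in both, so the ages would overlap. With only Marco left out of the first ratio, the log2 ratios were 0.85, 0.82 and 0.47 in young and 1.61, -1.015 and 0.63 in aged samples, which overlapped.

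Against the monocyte genes alone, a comparison also chosen after seeing the data and given with no test, the summed Kupffer genes were lower in every aged than in every young sample. Marco gave 11.4 of the 35.6 CPM of the Kupffer sum in young replicate 1. Of the 957 Kupffer counts in young replicate 1, 306 were Marco, beside 84 monocyte counts. The 127-week sample had 1702 Kupffer counts, 0 of them Marco, beside 222 monocyte counts. With Marco taken out, these counts put both samples at nearly the same ratio. The gap between young replicate 1 and the 127-week sample thus rests largely on Marco. Summed Kupffer CPM was 11.4, 9.96 and 12.7 times summed monocyte CPM in young and 7.67, 3.16 and 2.31 times in aged samples. On the log2 scale the means were 3.50 ± 0.18 in young and 1.93 ± 0.90 in aged samples (SD, n = 3 each), a difference of -1.56. The difference lay between -2.07 and -1.20 when any 1 sample was left out, and was -1.98 and -0.73 within the libraries rich and poor in Lars2 and Rn45s. The sums behind this ratio differed between the aged samples. At 131 weeks the Kupffer sum was 5.52 CPM, below the young sums of 21.6 to 37.3 CPM, and the monocyte sum was 1.75 CPM. At 136 weeks both sums were the highest, at 74.5 CPM for Kupffer and 32.3 CPM for monocyte genes. Against the dendritic cell genes the log2 ratio was 1.78, 1.13 and 0.64 in young and 2.34, -0.76 and 2.28 in aged samples, which lay on both sides of the young ones, and its aged-minus-young difference was -0.70 in the libraries rich in Lars2 and Rn45s and 1.70 in those poor in them.

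**Figure D3:**
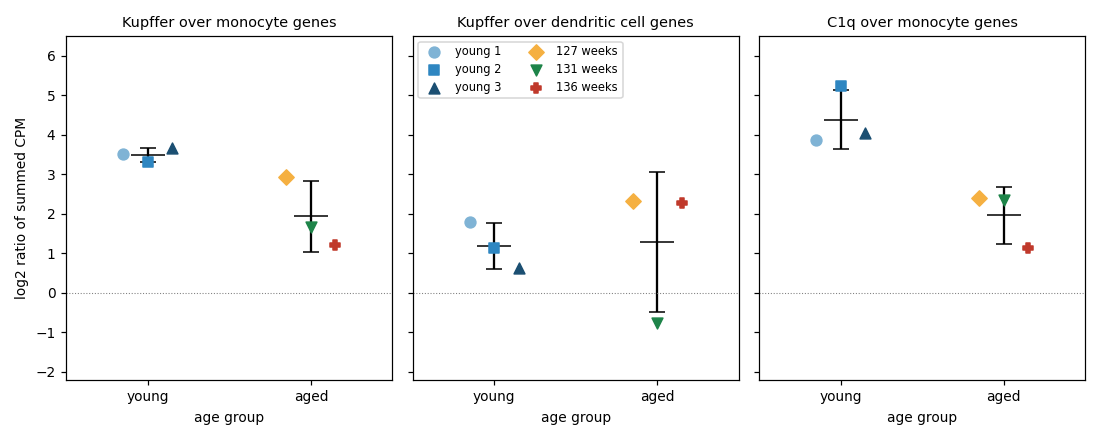
Log2 ratio of summed CPM of Kupffer genes over monocyte genes (left), of Kupffer genes over dendritic cell genes (middle) and of C1q genes over monocyte genes (right) in the 6 samples, with the mean and SD of each age (black, n = 3). The aged points lie below the young points on the left and right and on both sides of them in the middle. Marco is part of the Kupffer sums.

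Among the general macrophage and myeloid genes, 4 of 14 passed the unadjusted threshold as higher in aged samples, against 5.43% of all genes. Their median log2 fold change was 1.44. Mpeg1, a pore-forming protein of macrophages, had 2.98, 3.11 and 2.65 CPM in young and 8.67, 3.38 and 21.2 CPM in aged samples. All aged samples were above all young ones, the 131-week sample only just (log2 fold change 1.93, standard error 0.61, adjusted p = 0.301). Ms4a7, a membrane protein gene of macrophages, had 0.149, 0.135 and 0 CPM in young and 0.825, 0.350 and 1.14 CPM in aged samples, which also did not overlap although its young values stand on 4, 3 and 0 counts (log2 fold change 3.01, standard error 1.09, adjusted p = 0.341). Lyz2, the lysozyme of macrophages and neutrophils, had the highest mean CPM of this group, with 30.5, 15.2 and 31.0 CPM in young and 103, 19.4 and 327 CPM in aged samples. The 136-week sample was 12.8 times the young mean and the 131-week sample lay within the young range (log2 fold change 2.55, standard error 0.88, adjusted p = 0.332).

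The neighbouring gene Lyz1, known as the lysozyme of Paneth cells in the gut, followed Lyz2 with 4.06, 1.99 and 2.59 CPM in young and 8.70, 1.87 and 40.3 CPM in aged samples (log2 fold change 2.55, standard error 0.97, adjusted p = 0.359). Lyz2 stood at 7.51, 7.66 and 12.0 times Lyz1 in young and 11.8, 10.4 and 8.13 times in aged samples. Both lie on chromosome 10 of mm9 (Lyz1 from 116724852 to 116729924, Lyz2 from 116714390 to 116719377, minus strand). Their coding sequences, 447 bases each, differ at 22 positions, and 6.22% of the 75-base windows of Lyz1, the length of the reads, are also in Lyz2, so a part of the Lyz1 counts is uncertain. The first 300 coding bases are shown with the 20 differing bases in capitals, since few bases separate the 2 genes.
Lyz1: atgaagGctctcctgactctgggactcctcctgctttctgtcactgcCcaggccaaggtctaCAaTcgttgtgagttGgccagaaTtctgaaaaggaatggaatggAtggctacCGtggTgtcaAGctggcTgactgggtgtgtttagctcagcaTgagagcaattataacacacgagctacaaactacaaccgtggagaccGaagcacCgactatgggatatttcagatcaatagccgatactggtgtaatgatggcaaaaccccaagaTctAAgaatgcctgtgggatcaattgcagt
Lyz2: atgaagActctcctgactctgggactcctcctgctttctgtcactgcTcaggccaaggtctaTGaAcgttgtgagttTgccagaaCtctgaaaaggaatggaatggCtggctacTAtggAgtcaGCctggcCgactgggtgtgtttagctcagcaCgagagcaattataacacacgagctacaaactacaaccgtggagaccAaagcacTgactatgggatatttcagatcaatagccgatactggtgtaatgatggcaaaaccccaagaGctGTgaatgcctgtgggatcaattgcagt

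The genes of complement component C1q, which macrophages secrete and which starts the classical complement pathway, are named here for their values. These genes shared with the Kupffer genes the low level at 131 weeks, but not the high level of Clec4f and Vsig4 at 127 weeks. The low level at 131 weeks was not particular to them, as 16 of the 39 genes were lowest there. C1qa, C1qc and C1qb lie side by side on chromosome 4 (136436044 to 136454718 in all). C1qb had 28.8, 58.9 and 33.0 CPM in young and 23.2, 5.25 and 37.3 CPM in aged samples, C1qc had 12.3, 14.9 and 10.4 CPM in young and 12.1, 2.26 and 23.6 CPM in aged samples, and C1qa had 4.99, 7.81 and 5.05 CPM in young and 5.23, 1.36 and 9.99 CPM in aged samples. All 3 had their lowest level at 131 weeks, at 7.66, 5.55 and 4.37 times below the young mean. At 136 weeks they were 0.928, 1.89 and 1.68 times the young mean, where Lyz2 was 12.8 times, and their log2 fold changes were -0.88, 0.018 and -0.11 (standard errors 0.63, 0.68 and 0.63, adjusted p = 0.624, 0.996 and 0.971). Summed C1q over summed monocyte genes, chosen after seeing the data, had log2 ratios of 3.88, 5.23 and 4.05 in young and 2.41, 2.34 and 1.14 in aged samples, a difference of means of -2.43 that lay between -2.68 and -2.002 with any 1 sample left out. Within the libraries rich and poor in Lars2 and Rn45s it was -2.82 and -1.64.

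Of the other 7 genes of this group, Csf1r, Aif1, Ly86, Spi1 and Slc11a1 had their highest level at 136 weeks and the next at 127 weeks, and Cd68 its highest at 136 weeks and the next in young replicate 3. Csf1r, Aif1, Ly86 and Spi1 were also lowest at 131 weeks, at 0.37, 0.35, 0.38 and 0.31 times the young mean. Slc11a1 and Cd68 lay within the young range there. Csf1r is the receptor for the growth factor on which macrophages depend, Spi1 encodes the transcription factor PU.1 of myeloid cells and Cd68 a lysosomal protein of macrophages. Their log2 fold changes ran from 0.70 for Cd68 to 1.71 for Spi1, with adjusted p of 0.480 or above. Of the exon bases of Csf1r, 871 of 5229 overlap Hmgxb3, which had 46.3 to 53.6 CPM in every sample. Cd163, the haemoglobin scavenger receptor of resident macrophages, was unlike them, with 1.34, 0.316 and 2.37 CPM in young and 2.201, 0.195 and 0.163 CPM in aged samples. It was thus the one gene of this group lowest at 136 weeks, and its fitted log2 difference was -0.65 (standard error 1.13, adjusted p = 0.877).

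**Figure D4:**
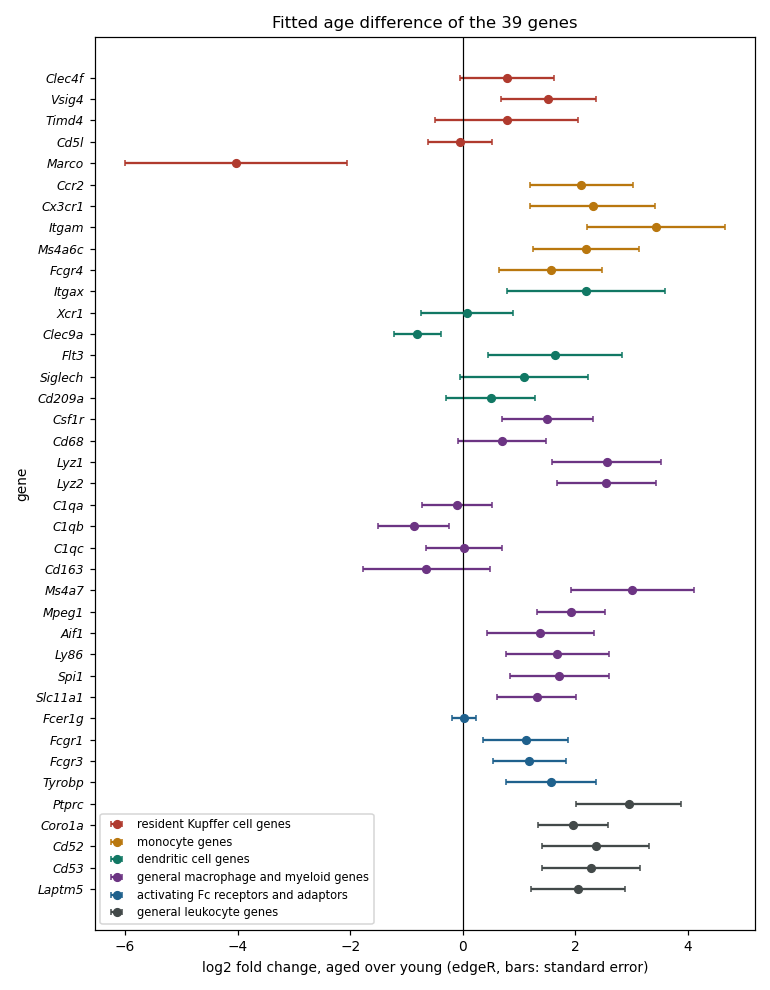
Fitted log2 fold change of aged over young samples for the 39 genes, with the standard error as bars and the gene groups in colour (edgeR, 3 samples per age). The monocyte and general leukocyte genes lie between 1.56 and 3.43, the Kupffer genes between -4.03 and 1.52 and Fcer1g at 0.02.

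Fcer1g, the signalling chain shared by activating Fc receptors, was the exception among the Fc receptor genes. It had 86.8, 65.9 and 62.7 CPM in young and 59.3, 91.8 and 66.9 CPM in aged samples, and its log2 fold change was 0.02 with the smallest standard error of the 39, 0.21 (adjusted p = 0.985). The 131-week sample, lowest for the Kupffer genes, was its highest. Per length of transcript it was also the most abundant gene of the list, at 154.5 ± 26.4 FPKM in young and 155.6 ± 35.1 FPKM in aged samples (SD, n = 3 each). It made up 14.98% of the summed FPKM of the 39 genes in the 136-week sample and 75.6% in the 131-week sample. The 2 receptors and the other adaptor had their highest level at 136 weeks, but none passed the unadjusted threshold and Tyrobp was below every young sample at 131 weeks. Tyrobp, the adaptor of many activating myeloid and NK receptors, had 4.13, 2.66 and 3.75 CPM in young and 7.22, 1.63 and 22.6 CPM in aged samples (log2 fold change 1.57, standard error 0.80, adjusted p = 0.476). Fcgr3, a low-affinity IgG receptor, had 1.68, 1.04 and 1.70 CPM in young and 2.17, 1.28 and 6.62 CPM in aged samples (log2 fold change 1.18, standard error 0.64, adjusted p = 0.510), and shares 5.76% of its 75-base windows with Fcgr2b. Fcgr1, the high-affinity IgG receptor, had 0.298, 0.677 and 0.947 CPM in young and 0.963, 0.545 and 2.68 CPM in aged samples (log2 fold change 1.11, standard error 0.76, adjusted p = 0.606). Platelets also carry Fcer1g, as the partner of their collagen receptor. The 6 platelet genes of a reference list summed to 33.7, 29.0 and 32.9 CPM in young and 23.4, 30.7 and 27.7 CPM in aged samples, and their part in the Fcer1g level was not tested.

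All 5 general leukocyte genes passed the unadjusted threshold as higher in aged samples, against 5.43% of all genes, and their log2 fold changes had a median of 2.27. At 131 weeks, however, Ptprc, Cd52, Cd53 and Laptm5 stood at 0.74 to 0.91 times the young mean and Coro1a at 1.29 times. Without the 136-week sample none of them passed, and their median was 0.59. Ptprc, which encodes the CD45 protein that the gate selects against, had 1.56, 1.17 and 1.70 CPM in young and 7.57, 1.28 and 25.6 CPM in aged samples. The 131-week sample was within the young range, while the 127- and 136-week samples were 5.11 and 17.3 times the young mean (log2 fold change 2.95, standard error 0.93, adjusted p = 0.301). Coro1a, an actin regulator of leukocytes, had 5.55, 3.48 and 4.26 CPM in young and 11.8, 5.72 and 34.2 CPM in aged samples, without overlap (log2 fold change 1.96, standard error 0.62, adjusted p = 0.301). Cd53, a tetraspanin of leukocytes, had 2.53, 2.66 and 1.77 CPM in young and 4.75, 2.101 and 26.8 CPM in aged samples (log2 fold change 2.27, standard error 0.87, adjusted p = 0.364). Laptm5, a lysosomal membrane protein of leukocytes, had 10.2, 4.87 and 6.63 CPM in young and 16.4, 5.33 and 67.7 CPM in aged samples (log2 fold change 2.04, standard error 0.83, adjusted p = 0.378). Cd52 ranged from 1.13 to 19.9 CPM with the same sample highest, and 172 of its 1187 exon bases overlap Aim1l, which had at most 0.284 CPM.

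Ptprc gives a scale on which the other 38 genes can be read within each library, a ratio chosen after seeing the data. Clec4f stood at 7.57, 6.69 and 11.7 times Ptprc in young and 4.36, 1.70 and 1.28 times in aged samples. C1qb stood at 18.4, 50.2 and 19.4 times Ptprc in young and 3.06, 4.09 and 1.46 times in aged samples. Lyz2, in contrast, stood at 19.5, 12.96 and 18.2 times in young and 13.6, 15.1 and 12.8 times in aged samples, which overlap. The ratio to Ptprc was lower in every aged than in every young sample for 17 of the 38 genes, against 8.71% of all genes taken in the same way, and higher for 0. By its construction this ratio is low wherever Ptprc is high and the other gene is not. The 17 comprised 5 of 5 Kupffer genes, 8 of 14 general macrophage genes, 2 of 5 monocyte genes, 1 of 6 dendritic cell genes, 1 of 4 Fc receptor genes and 0 of the other 4 leukocyte genes. For Marco this order rests on 2 counts of young replicate 3 against 1 count at 131 weeks.

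Other genes of these and of other blood cells were counted from lists that do not share members with the 39. Of 19 other macrophage genes, 7 passed the unadjusted threshold as higher and 1 as lower in aged samples, and the median log2 fold change was 1.67. The shares of all genes were 5.43% higher and 1.19% lower. The 1 lower gene, the scavenger receptor gene Msr1, had 551, 522 and 428 CPM in young and 226, 253 and 193 CPM in aged samples (log2 fold change -1.16, standard error 0.18, adjusted p = 0.177). Msr1 was lowest at 136 weeks, and in every sample it stood far above Clec4f, which had 2.18 to 33.0 CPM. Whether the Msr1 RNA came from macrophages or from the ECs was not tested. Of 10 other monocyte genes, 6 were higher and 0 lower (median 2.47), and of 9 tested other dendritic cell genes 1 was higher and 0 lower (median 0.68). Neutrophil genes summed to 11.4, 7.90 and 4.01 CPM in young and 14.7, 8.01 and 65.9 CPM in aged samples, and T and NK cell genes to 9.75, 10.9 and 12.7 CPM in young and 31.3, 10.9 and 80.7 CPM in aged samples. The 136-week sample was therefore also the highest in lymphocyte and neutrophil RNA, and the 131-week sample was near the young samples in both. How much of each gene's level came from which of these cells, or from the ECs, was not tested.

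**Figure D5:**
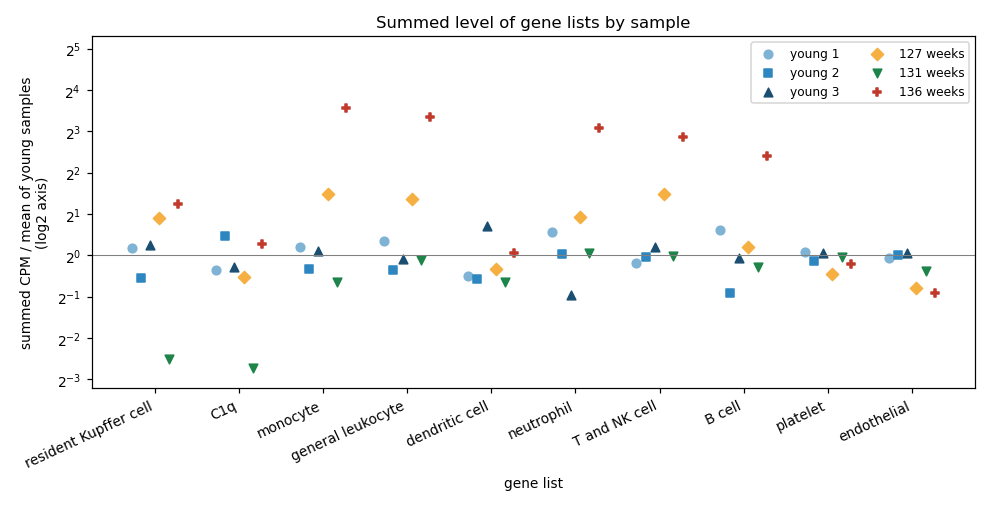
Summed CPM of each gene list in each sample, divided by the mean of the 3 young samples (log2 axis, 1 point per sample). The 136-week sample is the highest for the monocyte, general leukocyte, neutrophil, T and NK cell and B cell lists, and the 131-week sample lies furthest below the young samples for the Kupffer and C1q lists.

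Within the libraries rich and poor in Lars2 and Rn45s, the median aged-minus-young difference of log2(CPM + 1) was 0.92 and 0.59 for the monocyte genes, 1.47 and 1.19 for the general leukocyte genes, 0.76 and 0.47 for the general macrophage genes and 0.76 and 0.12 for the Fc receptor genes. It was -0.040 and 0.12 for the Kupffer genes, 0.21 and -0.11 for the dendritic cell genes and -0.70 and 0.042 for the C1q genes. The sign was thus shared by both kinds of library for the monocyte, leukocyte, macrophage and Fc receptor genes and differed for the Kupffer, dendritic cell and C1q genes. The poor kind is only young replicate 3 against the 127-week sample, and its values of 0.12, -0.11 and 0.042 are small, so little can be read from these signs.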

How the data were processed

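RNA of sorted CD31+CD45- liver ECs was read on a HiSeq 2500 from TruSeq libraries as 75-base single-end reads. Per the submitters' processing notes and the methods, the authors called bases with CASAVA 1.8.2 and mapped reads to mm9 with TopHat2 2.1.0. The authors deposited unnormalized whole-number counts for each gene symbol, and FPKM values made with Cuffnorm 2.2.1. The counting program, its annotation and its use of strand are not given in the sources used here, so overlapping genes are uncertain.

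Genes reaching 0.5 CPM in 1 sample or more (14612, all 39 listed genes included) were normalized by TMM and compared with the quasi-likelihood test of edgeR (4.0.16, under R 4.3.3). Adjustment over all of them followed Benjamini and Hochberg. The thresholds were an adjusted p of 0.05 and a log2 fold change beyond 1. Alternatives used DESeq2 1.42.0, limma 3.58.1 (voom with quality weights, and log2 FPKM with a pseudocount of 1 or 0.1), and other scalings and filters. Further ones were a term that set libraries rich in Lars2 and Rn45s apart from poor ones, and the removal of each sample. Same-age libraries differed by a chi-square of at least 20.2 per degree of freedom, so none was a copy. The p-values set the age difference against the spread between samples of the same age, which is estimated with help from all genes. Since the number of mice per sample is not given, whether this is a spread between single mice is not known.

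All Kupffer, monocyte and dendritic cell genes were named, and in each other group the 3 with the smallest p and the 1 with the highest mean CPM. Members, lists and tests were chosen with earlier results of these data known. Positions are those of GENCODE on mm9, and promoters those of RefSeq on GRCm38.p6, which held 34 of the 39 genes. Of the 13 neutrophil genes, 12 were in the table. Protein sequences were not used here.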

Additional observations from a re-analysis of the deposited data

How the results depend on the processing

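No paired analysis was made, since nothing links a young sample to an aged one. No gene of the list was called in edgeR at the adjusted threshold under any scaling, filter or removal of a sample, and of the 572 values of single genes under an alternative 546 kept their direction and their side of the threshold. DESeq2 called 5 of the 39 genes as higher in aged samples (16 at the unadjusted threshold), and 395 higher and 79 lower genes in all. Over all genes, 3 higher and 1 lower were called without a filter, and 1 and 1 with a term for libraries rich or poor in Lars2 and Rn45s. It was 13 and 2 with limma-voom, 1 and 1 with log2(FPKM + 0.1), and 0 to 1 higher with 1 sample removed. The 10 genes of the list past the unadjusted threshold became 6 with the term for rich and poor libraries, 5 with limma-voom, 3 with log2(FPKM + 0.1) and 1 with log2(FPKM + 1). With 1 sample removed they became 0 (without the 136-week sample) to 23 (without the 131-week sample), when 0 to 1 were lower. Among all these alternatives, the share of all genes past that threshold was counted only without the 131-week sample, at 7.71%.

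Median log2 fold changes with 1 sample removed ran from -0.39 to 1.32 for the Kupffer, 0.62 to 2.71 for the monocyte, 0.15 to 1.57 for the dendritic cell, 0.32 to 1.96 for the general macrophage, 0.23 to 1.53 for the Fc receptor and 0.59 to 2.76 for the leukocyte genes, and from 0.41 to 2.05 for all 39. The lowest was without the 136-week sample each time. With log2(FPKM + 1), which understates the change of low genes, the medians were 0.56 for monocyte, 0.15 for dendritic cell, 0.44 for Fc receptor and 0.56 for all genes of the list, and with log2(FPKM + 0.1) it was 1.04 for monocyte genes. With a minimum of 1 CPM in 3 samples, which leaves fewer genes, the dendritic cell median was -0.15. The aged-minus-young log2 ratio of Kupffer to monocyte and dendritic cell genes was -0.49 in the comparison of all samples. It was -0.30 without Marco, -1.61 without Clec4f and Clec9a but with Marco kept, and -1.09 to 0.22 with 1 sample removed. Against monocyte genes alone, with Marco kept, the difference was -1.56.

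Direction changed for Timd4 (-1.21 in limma-voom, -0.10 with log2(FPKM + 0.1)), C1qc (-0.69 in limma-voom, -0.51 and -0.41 with pseudocounts of 0.1 and 1) and Fcer1g (-0.048 in limma-voom). With 1 sample removed the log2 fold change ran from -0.86 to 1.36 for Timd4, -0.39 to 0.41 for Cd5l, -7.43 to 0.073 for Marco, -0.42 to 0.51 for Xcr1, -0.35 to 2.23 for Flt3, -0.84 to 0.36 for C1qa, -0.79 to 0.51 for C1qc, -2.88 to 0.039 for Cd163, -0.016 to 1.89 for Aif1 and -0.19 to 0.18 for Fcer1g. The cause of these changes was not tested.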
